A study of Homo sapiens with 15 samples.

Results

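The genes described here are the 10 that form the G1 arm of the RB pathway: the D-type cyclins CCND1, CCND2 and CCND3, their kinases CDK4 and CDK6, the kinase inhibitors CDKN1A, CDKN1B, CDKN2A and CDKN2B, and RB1. They were taken by name, as the rows of the count table whose Entrez number maps to these symbols, and all 10 were found among the 28395 genes of the table. Of these, 9 passed the filter on low counts that left 16740 genes for testing, and CCND2 did not. RNA was sequenced from 15 samples of BEAS-2B, an immortalised line of human bronchial epithelial cells. The exposed cells were grown with polyethylene terephthalate nanoplastics (PET-NPLs) at 50 µg/mL for 24 h (n = 2), 15 weeks (n = 2) or 30 weeks (n = 4), with medium and particles renewed every few days, and each time had its own non-exposed cells of the same passage (n = 2, 2 and 3). The samples of 24 h and 15 weeks share a batch and those of 30 weeks form another. The sample titles do not say what kind of batch this is. The later time and the batch cannot be told apart, whereas each exposed group shares its batch with its control. All groups come from one cell line, and nothing in the sources says that the replicates were separate cultures, so p-values measure the spread between these samples, which may be technical.

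In G1, D-type cyclins bind CDK4 or CDK6, and the active kinase phosphorylates the RB1 protein. Unphosphorylated RB1 holds E2F factors back from the genes of DNA synthesis, and its phosphorylation frees them. The INK4 inhibitors (p16INK4a from CDKN2A, p15INK4b from CDKN2B) bind CDK4 and CDK6 and keep the cyclin out, whereas the CIP/KIP inhibitors (p21 from CDKN1A, p27 from CDKN1B) bind cyclin-kinase complexes and act above all on CDK2. Much of this circuit is set by phosphorylation, binding and protein turnover, which RNA counts do not measure. In bulk samples, fewer cells with a transcript and less of it per cell cannot be told apart.

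Libraries held 23143202 to 31459990 counts. Values below are CPM, the usual scale of counts relative to the total of a library, after TMM scaling, which sets libraries to a common level, and changes are log2 fold changes from edgeR's quasi-likelihood test over all 16740 genes, called where the Benjamini-Hochberg adjusted p was under 0.05. At 30 weeks, 6 abundant small noncoding RNAs took 22.3% to 31% of the counts in controls and 17.0% to 21.5% in exposed samples, against 9.75% to 12.9% earlier. Control replicate 1 of 30 weeks stood apart by its scaling factor of 0.739, and exposed replicate 2 of 30 weeks by its correlation of 0.976 to 0.981 with the other exposed samples, which correlated at 0.991 with each other. Of the epithelial markers, KRT8 and KRT18 were abundant, while CDH1 and EPCAM were under 1 CPM and KRT5 was at 0 from 15 weeks on.

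Of the 10 genes, 8 had an entry among the RefSeq promoter sequences (GRCh38.p14), CCND1 and CCND2 being the exceptions, and in 7 of these the window lay near the start of the gene. The transcript start used lay 1.347 kb inside the outer gene start for CCND3 and 2.251 kb inside it for CDKN1A. The windows of the 3 genes that were called at 30 weeks and had one there are shown, 250 bases before the transcript start, 5′ to 3′ on the gene's strand, with each GC box (the letters GGGCGG or their reverse complement, overlaps counted) in capitals. They lie at chr6:36678464-36678713 (CDKN1A, plus strand), chr6:42048689-42048938 (CCND3, minus strand) and chr7:92836574-92836823 (CDK6, minus strand).
CDKN1A: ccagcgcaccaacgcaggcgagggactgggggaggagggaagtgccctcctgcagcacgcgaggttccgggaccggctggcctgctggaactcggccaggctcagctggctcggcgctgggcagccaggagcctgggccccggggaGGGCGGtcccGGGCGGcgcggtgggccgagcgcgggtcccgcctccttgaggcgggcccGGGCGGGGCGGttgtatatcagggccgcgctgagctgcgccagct
CCND3: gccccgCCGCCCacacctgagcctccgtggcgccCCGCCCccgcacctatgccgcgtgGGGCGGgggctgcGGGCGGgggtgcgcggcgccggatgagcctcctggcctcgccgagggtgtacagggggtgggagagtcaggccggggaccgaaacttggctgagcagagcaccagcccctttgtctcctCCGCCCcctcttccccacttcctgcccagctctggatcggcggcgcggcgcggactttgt
CDK6: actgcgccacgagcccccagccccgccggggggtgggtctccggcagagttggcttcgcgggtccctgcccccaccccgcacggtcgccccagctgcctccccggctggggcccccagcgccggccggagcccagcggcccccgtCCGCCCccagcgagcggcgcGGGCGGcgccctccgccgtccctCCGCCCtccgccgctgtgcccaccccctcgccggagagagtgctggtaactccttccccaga

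These windows were rich in G and C, at 76.4% for CDKN1A, 74.4% for CCND3 and 80.0% for CDK6, against a median of 58.0% over all 35116 promoters. They held 4, 5 and 3 GC boxes. Over the 7 genes, 6 held at least 1 (all but CDKN2A), as did 42.6% of all promoters. The CDKN2A window is that of its outermost start, and no other start of that gene was among the 7 windows. Other motifs were searched on both strands and found in none of the 7. The E2F form TTTNNCGC was in 5.92% of all promoters and the CRE letters TGACGTCA in 1.65%. The AP-1 letters TGANTCA were in 6.57% of all promoters. For the TATA box, searched as TATAAA, the share was 10.7%. A match is a description of letters and not a site shown to be used.

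Between exposed and control cells of 30 weeks, CCND1, CCND3, CDK6 and CDKN1A were lower and RB1 was higher in the exposed cells, which is 5 of the 9 tested genes, while 23.7% of all tested genes were called in that comparison. CDK4, CDKN1B, CDKN2A and CDKN2B were not called. At 24 h and at 15 weeks none of the 9 was called, and 0% and 0% of all genes were, with 277 and 823 genes but none of the 9 at an unadjusted p under 0.05. The median log2 fold change of the 9 at 30 weeks was −0.11, against 0.0078 over all tested genes.

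**Figure D1:**
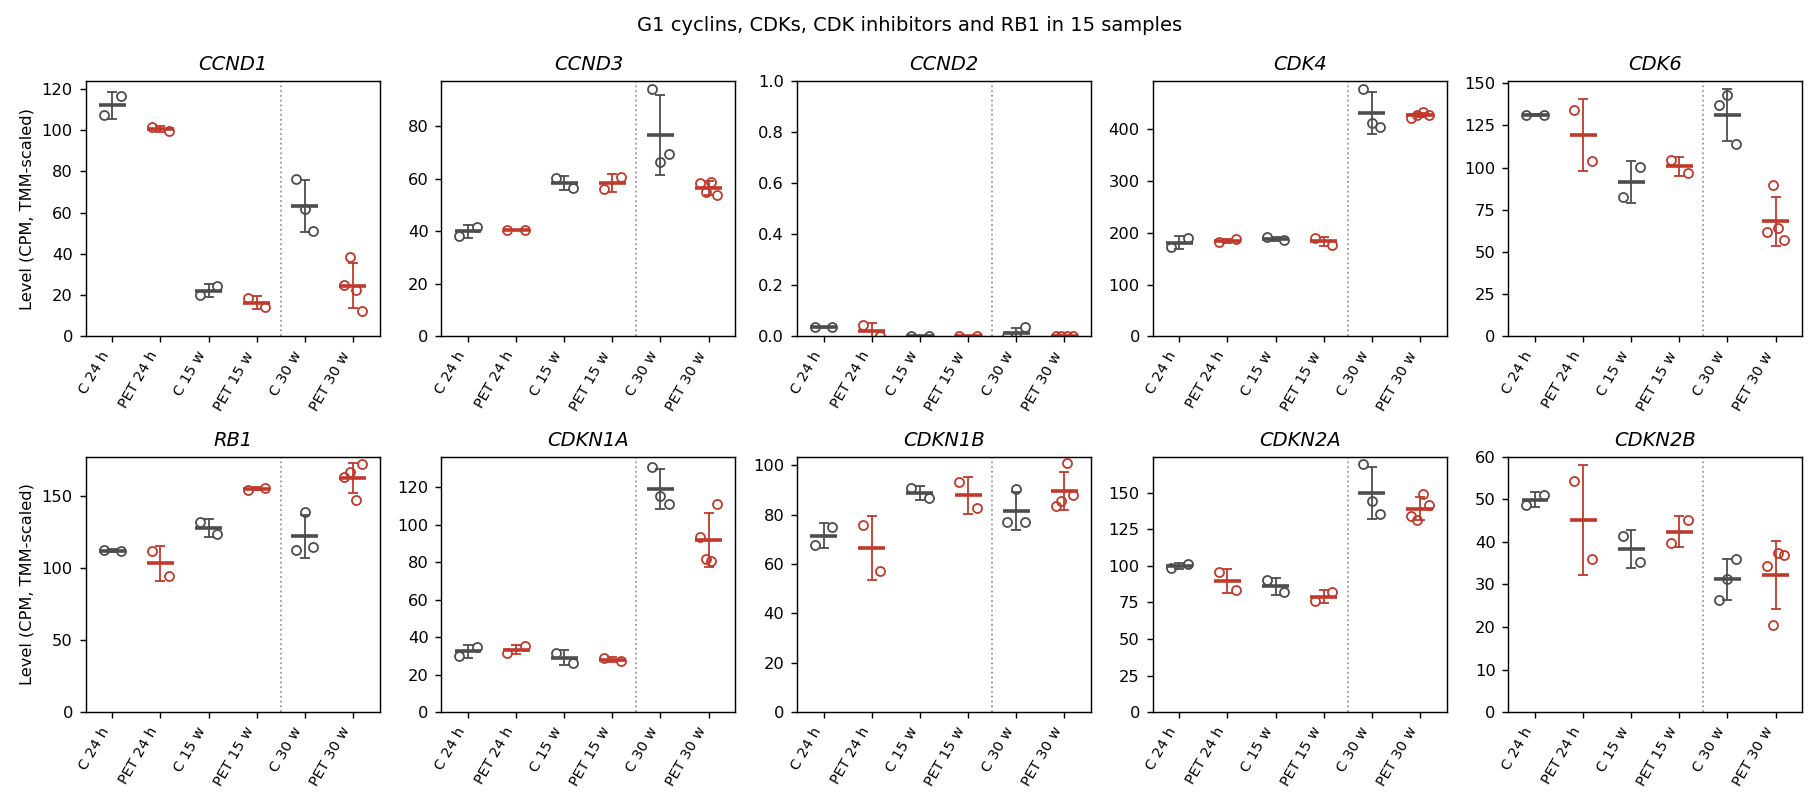
Level of each gene (CPM after TMM scaling, vertical axes from 0) in every sample of control (C, grey) and exposed (PET, red) cells at 24 h, 15 weeks and 30 weeks (w). Circles are samples, thick bars group means and thin bars ± 1 SD, and the dotted line separates the batches. At 30 weeks the exposed samples lie wholly below the controls for CCND1, CCND3 and CDK6 and wholly above them for RB1.

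CCND1 encodes cyclin D1, the D-type cyclin most closely tied to growth factor signals, and lies at chr11:69641156-69654474 (GRCh38, plus strand). At 30 weeks its level was 76.3, 61.8 and 51.1 CPM in the controls and 25.1, 38.5, 22.5 and 12.4 CPM in the exposed samples. Every exposed sample was below every control, and the fold change was 2.56-fold lower (log2 −1.36 ± 0.25 SE, edgeR adjusted p = 0.00106). At 15 weeks the controls held 19.8 and 24.5 CPM and the exposed samples 18.4 and 14 CPM. These did not overlap either, which says little with 2 samples a group. The difference of −0.45 on the log2 scale had a 95% interval of −1.17 to 0.27 and was not called (edgeR adjusted p = 1). At 24 h the values were 107 and 117 CPM in controls and 102 and 99.5 CPM in exposed cells, with a log2 change of −0.16 (interval −0.86 to 0.54). The groups of 24 h did not overlap either, again with 2 samples a group.

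CCND1 also moved between times in cells that saw no particles. From 24 h to 15 weeks it fell by 2.34 on the log2 scale in controls (edgeR adjusted p = 0.000136) and fell by 2.63 in exposed cells (edgeR adjusted p = 4.55e-05). From 15 to 30 weeks it rose by 1.51 in controls (edgeR adjusted p = 0.00108), whereas the 0.60 of the exposed cells was not called (interval −0.04 to 1.24, edgeR adjusted p = 0.114). Without exposed replicate 4 of 30 weeks that rise was 0.83 and called (edgeR adjusted p = 0.00917), and over 16 alternatives it ran from 0.30 to 0.83. The exposed cells at 30 weeks thus overlapped the range both groups had at 15 weeks, and the controls lay between that range and the level at 24 h. The difference between the change at 30 weeks and that at 15 weeks was −0.91 (unadjusted p = 0.0493, edgeR adjusted p = 0.325), which was not called. Without exposed replicate 2 of 30 weeks it was −1.21 and called (edgeR adjusted p = 0.0174).

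CCND3 encodes cyclin D3 (chr6:41934933-42050035, minus strand). At 30 weeks it stood at 94.3, 66.3 and 69.2 CPM in controls and at 58.3, 54.8, 58.9 and 53.9 CPM in exposed samples. The groups did not overlap, and control replicate 1 was the highest sample by far. The fall was 1.36-fold (log2 −0.44 ± 0.12 SE, edgeR adjusted p = 0.0144), and without that control it was −0.26 (edgeR adjusted p = 0.108) and no longer called. At 15 weeks controls held 60.2 and 56.4 CPM and exposed samples 56.1 and 60.8 CPM, overlapping in full. At 24 h they held 38.0 and 41.8 CPM against 40.3 and 40.5 CPM.

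Unlike CCND1, CCND3 rose from 24 h to 15 weeks, by 0.55 in controls (edgeR adjusted p = 0.0189) and 0.53 in exposed cells (edgeR adjusted p = 0.0213). Both calls were lost when any 1 of the replicates compared was left out. From 15 to 30 weeks it rose by 0.39 in controls (edgeR adjusted p = 0.0333), and by 0.21 (edgeR adjusted p = 0.156) without control replicate 1 of 30 weeks, and it was also not called without either 15-week control. CCND2, the third D-type cyclin (chr12:4273762-4305353), had 0 counts in 11 samples and 1 count in 4. A count of 0 allows up to 3 counts, or 0.0885 to 0.129 CPM over these libraries (counting error only), so its expression was not detectable at this depth.

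Per kilobase of exon, the balance of the D-type cyclins shifted. The size of each share depends on the exon lengths used, 4.761 kb for CCND1 and 5.761 kb for CCND3. CCND1 made up 77.2% of their summed level in controls and 75.1% in exposed cells at 24 h, and 31.5% and 25.1% at 15 weeks. At 30 weeks it made up 49.9% in controls (47.2% to 53%) and 33.4% in exposed cells (21.7% to 46.0%), ranges that did not overlap. Those of 24 h and of 15 weeks did not overlap either, which says little with 2 samples a group. At 15 weeks they were 28.52% to 34.45% in controls and 21.77% to 28.46% in exposed cells. The summed level at 30 weeks was 26.5 CPM per kb in controls (22.7 to 32.4) and 15.0 in exposed cells (11.9 to 17.6).

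**Figure D2:**
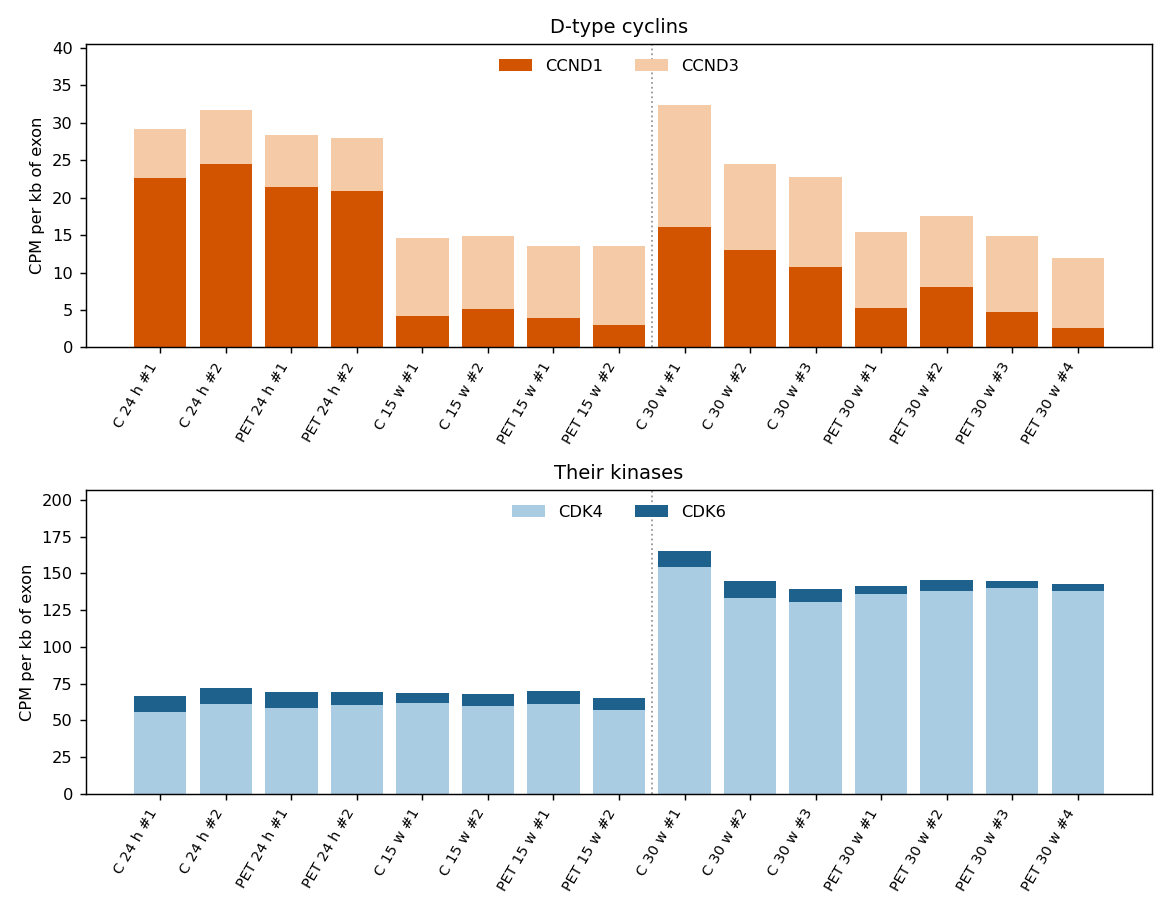
Level per kilobase of exon (CPM per kb, stacked bars from 0) of CCND1 and CCND3 (above) and of CDK4 and CDK6 (below) in each of the 15 samples, numbered by replicate (C, control; PET, exposed; the dotted line separates the batches). The D-type cyclin bars are lower at 15 weeks than at 24 h, and at 30 weeks they are higher than at 15 weeks in the controls (22.7 to 32.4) while the exposed samples (11.9 to 17.6) lie below these controls, and CDK4 makes up most of the kinase bar in every sample.

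CDK4 and CDK6 are both partners of the D-type cyclins, and at 30 weeks CDK6 was called and CDK4 was not. CDK6 (chr7:92604921-92836573, minus strand) stood at 137, 143 and 114 CPM in controls of 30 weeks and at 61.7, 89.7, 64.1 and 57.2 CPM in exposed samples. No exposed sample reached the lowest control, and the level was 1.92-fold lower (log2 −0.94 ± 0.15 SE, edgeR adjusted p = 3e-04). At 15 weeks controls held 82.4 and 100 CPM and exposed samples 105 and 96.7 CPM, overlapping, with a log2 change of 0.14 (interval −0.29 to 0.57). At 24 h the values were 131 and 131 CPM against 134 and 104 CPM.

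CDK6 was the 1 gene of the 9 called in the test of whether the response differed between 15 and 30 weeks. The change at 30 weeks minus that at 15 weeks was −1.08 on the log2 scale (SE 0.25, interval −1.62 to −0.55, edgeR adjusted p = 0.019), in a comparison where 4.74% of all genes were called. It was not called without control replicate 1 of 15 weeks (−0.95, edgeR adjusted p = 0.139), exposed replicate 1 of 15 weeks (−1.03, edgeR adjusted p = 0.0972) or exposed replicate 2 of 15 weeks (−1.14, edgeR adjusted p = 0.0644). Over time, CDK6 rose from 15 to 30 weeks in controls, by 0.52 (edgeR adjusted p = 0.0281), and fell in exposed cells, by 0.56 (edgeR adjusted p = 0.0138). The rise was lost without control replicate 1 of 15 weeks or control replicate 1 or 2 of 30 weeks, with 0.39 to 0.49 remaining, and the fall without either exposed replicate of 15 weeks (edgeR adjusted p = 0.108 and 0.0517).

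CDK4 (chr12:57747727-57752310, minus strand) was at 477, 412 and 403 CPM in controls of 30 weeks and at 422, 427, 433 and 427 CPM in exposed samples. The exposed values fell inside the range of the controls, and the log2 change of −0.01 had an interval of −0.23 to 0.21 (edgeR adjusted p = 0.951). CDK4 had been at 172 to 191 CPM in every sample of 24 h and 15 weeks. It rose by 1.19 from 15 to 30 weeks in controls (edgeR adjusted p = 3.15e-06) and by 1.22 in exposed cells (edgeR adjusted p = 4.39e-06), a step that coincides with the change of batch. TSPAN31, which overlaps CDK4 on the opposite strand, had 265 to 457 counts, and since the strand setting of the counting is not given in the sources used here, its reads and those of CDK4 may be mixed.

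Per kilobase of exon, CDK4 exceeded CDK6 by 13.1 times in controls of 30 weeks (11.4 to 14.02) and by 25.5 times in exposed cells (18.8 to 29.5), without overlap. The ratio was 5.45 and 6.22 at 24 h and 8.24 and 7.19 at 15 weeks, in controls and exposed cells. At 15 weeks the groups did not overlap either, but with the exposed cells lower (7.16 to 7.22 against 7.33 to 9.16). This says little with 2 samples a group, and at 24 h the groups overlapped. The size of the ratio, too, depends on the exon lengths used.

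**Figure D3:**
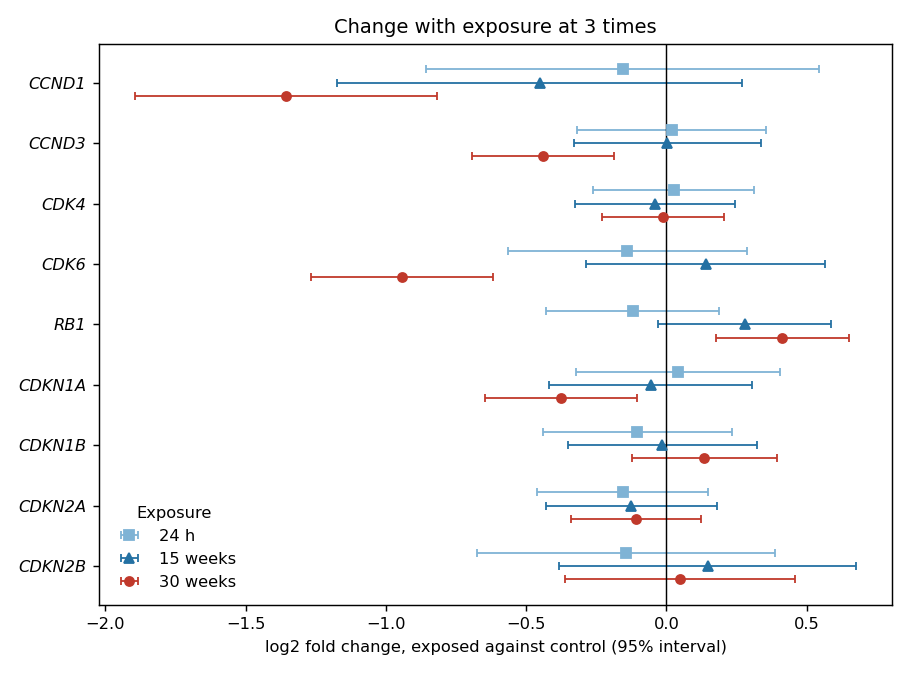
Log2 fold change of exposed against control cells for the 9 tested genes at 24 h (squares), 15 weeks (triangles) and 30 weeks (circles), with bars giving 95% intervals from edgeR's fit. At 30 weeks the intervals of CCND1, CCND3, CDK6 and CDKN1A lie below 0 and that of RB1 above it, and every interval of 24 h and 15 weeks spans 0.

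CDKN1A encodes p21, the inhibitor that p53 induces after DNA damage (chr6:36676463-36687332, plus strand). At 30 weeks it stood at 131, 115 and 111.0 CPM in controls and at 93.7, 81.7, 80.8 and 111.2 CPM in exposed samples. The highest exposed sample just passed the lowest control, so the groups overlapped. The fall was 1.30-fold (log2 −0.38 ± 0.13 SE, edgeR adjusted p = 0.0434), the weakest of the 5 calls. It was not called without control replicate 1 (−0.30, edgeR adjusted p = 0.19), control replicate 2 (−0.40, edgeR adjusted p = 0.0677), exposed replicate 1 (−0.38, edgeR adjusted p = 0.073) or exposed replicate 3 (−0.32, edgeR adjusted p = 0.116).

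The larger change of CDKN1A was over time and in both groups. All 8 samples of 24 h and 15 weeks were at 26.4 to 35.0 CPM. From 15 to 30 weeks it rose by 2.03 in controls (edgeR adjusted p = 2.74e-07) and by 1.71 in exposed cells (edgeR adjusted p = 2.44e-06), again together with the change of batch.

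CDKN1B encodes p27, which accumulates in resting cells and is mostly controlled through its breakdown (chr12:12717368-12722369, plus strand). It stood at 77.0, 90.4 and 77.2 CPM in controls of 30 weeks and at 83.7, 85.6, 101 and 88.0 CPM in exposed samples. The groups overlapped, with a log2 change of 0.14 (interval −0.12 to 0.39, edgeR adjusted p = 0.461). Over all 15 samples it spanned 57.3 to 101 CPM, and none of the comparisons called it. Its rise from 24 h to 15 weeks in exposed cells was 0.40 (edgeR adjusted p = 0.0764), and 4 of 14 alternatives called it, among them the fit without exposed replicate 1 of 24 h (0.62). In controls CDKN1B rose as well, by 0.31 (edgeR adjusted p = 0.174). Of 14 alternatives 1 called that rise, the fit of batch 1 alone (0.34, edgeR adjusted p = 0.0285).

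CDKN2A and CDKN2B lie next to each other on chromosome 9 (chr9:21967752-21995324 and chr9:22002903-22009313, minus strand). CDKN2A stood at 170, 145 and 136 CPM in controls of 30 weeks and at 134, 131, 150 and 142 CPM in exposed samples. These overlapped, with a log2 change of −0.11 (interval −0.34 to 0.12, edgeR adjusted p = 0.523). It too was higher at 30 than at 15 weeks, by 0.80 in controls (edgeR adjusted p = 0.00015) and 0.82 in exposed cells (edgeR adjusted p = 0.000128). At 24 h its controls, at 98.5 and 101 CPM, did not overlap the exposed samples at 95.6 and 83.8 CPM. This says little with 2 samples a group, and the change of −0.15 had an interval of −0.46 to 0.15. Its products p16INK4a and ARF share exons, so counts per gene cannot separate them. CDKN2B stood at 26.3, 31.3 and 36.0 CPM in controls of 30 weeks and at 34.4, 20.4, 37.4 and 36.9 CPM in exposed samples, with a log2 change of 0.05 (interval −0.36 to 0.46, edgeR adjusted p = 0.89). Over all samples CDKN2B spanned 20.4 to 54.4 CPM, with the highest at 24 h and the lowest at 30 weeks, and none of the comparisons called it. The antisense gene CDKN2B-AS1 overlaps both and had 134 to 359 counts, against 583 to 1462 for CDKN2B and 2198 to 4302 for CDKN2A. Since the strand setting of the counting is not given, its reads and those of both genes may be mixed.

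RB1 encodes the pocket protein that this pathway acts on (chr13:48303751-48481890, plus strand). At 30 weeks it stood at 112, 139 and 114 CPM in controls and at 163, 167, 147 and 172 CPM in exposed samples. All exposed samples were above all controls, by 1.33-fold (log2 0.41 ± 0.11 SE, edgeR adjusted p = 0.0138). Without control replicate 1 the difference was 0.36 and not called (edgeR adjusted p = 0.0598). At 15 weeks controls held 132 and 124 CPM and exposed samples 154 and 156 CPM. These did not overlap, which says little with 2 samples a group. The change of 0.28 had an interval of −0.03 to 0.59 (unadjusted p = 0.0731, edgeR adjusted p = 1).

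At 24 h RB1 stood at 113 and 111 CPM in controls and 112 and 94.5 CPM in exposed cells. From 24 h to 15 weeks it rose in exposed cells by 0.59 (edgeR adjusted p = 0.00724; 0.47 and edgeR adjusted p = 0.105 without exposed replicate 2 of 24 h), and in controls the 0.19 was not called (interval −0.12 to 0.50). Of the 9 genes, 4 had groups that did not overlap at 30 weeks (CCND1, CCND3, CDK6 and RB1), against 27.3% of all tested genes.

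Several of these genes also moved between times within each group. From 24 h to 15 weeks 2 of the 9 were called in controls, where 24.9% of all genes were, and 3 in exposed cells, where 26% were. These backgrounds rest on 2 samples a group: the 4174 genes called in controls became 2462 to 2693 when any 1 library compared was left out, and the 4349 in exposed cells became 2526, 2527 and 2665 without exposed replicate 2 of 15 weeks, replicate 2 of 24 h and replicate 1 of 15 weeks. From 15 to 30 weeks 6 were called in controls, all higher, where 50.3% of all genes were, and 4 in exposed cells (CDK4, CDKN1A and CDKN2A higher, CDK6 lower), where 46% were.

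Compared per kilobase of exon, CDK4 had the highest level in every group, at 139 CPM per kb in controls of 30 weeks. CDKN1A (39.8, range 37.0 to 43.7) and CDKN2A (38.6, range 34.9 to 43.7) came next there and overlapped. RB1 followed at 19.0 (17.5 to 21.6), apart from its neighbours in this order, and then CCND3 at 13.3, CCND1 at 13.2, CDK6 at 10.7, CDKN1B at 8.81 and CDKN2B at 7.80, each overlapping the next. In exposed cells of 30 weeks the order of the means differed at its lower end and between CDKN1A and CDKN2A. CDKN2A stood at 35.8 and CDKN1A at 30.7, overlapping, and RB1 at 25.2 (22.9 to 26.8) just below the lowest CDKN1A value of 27.0. CCND3 at 9.80 and CDKN1B at 9.68 overlapped, and CDKN2B at 8.07, CDK6 at 5.57 and CCND1 at 5.17 closed the order, each overlapping the next. The place of CDKN1B in both orders is uncertain. Its exon length used here, 9.255 kb, exceeds its whole RefSeq locus at chr12:12717368-12722369, which would set its level per kb too low.

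The other genes of the pathway were read from lists, whose counts stand against the 23.7% of all tested genes called at 30 weeks. Of CDK2 and its cyclins, 1 of 5 was called at 30 weeks, CCNE1, whose product cyclin E1 activates CDK2 after the D-type cyclins have acted. It rose by 1.40 (edgeR adjusted p = 0.001) from a low level, 1.03 to 1.79 CPM in controls against 3.56 to 4.66 CPM. Of the other CDK inhibitors, 1 of 3 was called, CDKN1C (p57), which fell by 0.96 (edgeR adjusted p = 0.00652) from 2.58 to 3.43 CPM in controls to 1.34 to 1.90 CPM. CDKN2C (p18INK4c), at 94.3 to 101 CPM in controls, was not called.

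Among the pocket proteins and E2F factors 3 of 12 were called higher and none called lower, a share near the 23.7% of all genes, with a list median of 0.21. TFDP1, the partner that E2F factors need to bind DNA, rose by 0.69 (edgeR adjusted p = 0.000505), RBL1 (p107, a relative of RB1) by 0.37 (edgeR adjusted p = 0.0313) and E2F3 by 0.32 (edgeR adjusted p = 0.0444). E2F1 was at 118 to 144 CPM in controls and 121 to 151 CPM in exposed cells and was not called. Of the 18 E2F target genes of DNA synthesis, 2 were called higher and none called lower, a share below the 23.7% of all genes, with a median of 0.15. MCM6, a subunit of the replicative helicase, rose by 0.54 (edgeR adjusted p = 0.00457) and RRM2, which makes deoxyribonucleotides, by 0.42 (edgeR adjusted p = 0.0233).

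Of the 8 mitotic genes 2 were called, both higher, a share near the 23.7% of all genes, and the median was 0.25. These were the proliferation marker MKI67 by 0.81 (edgeR adjusted p = 0.0119) and the kinetochore gene CENPF by 0.77 (edgeR adjusted p = 0.00932). From 15 to 30 weeks 6 of the 8 mitotic genes were called lower in controls (median −0.85), where 50.3% of all genes were called. In exposed cells 5 were called lower and 1 higher (median −0.65), where 46% of all genes were called. Among 12 genes of cyclin turnover and CDK activation 1 was called higher and 2 lower at 30 weeks, again near the 23.7% of all genes. FBXW7, which marks cyclin E for breakdown, fell by 0.78 (edgeR adjusted p = 0.000273), RBX1, the RING subunit of cullin ligases, fell by 0.83 (edgeR adjusted p = 0.0421) in groups that overlapped, and CUL1, the scaffold of SCF ligases, rose by 0.52 (edgeR adjusted p = 0.00342).

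Of 8 factors known to act on CCND1, 1 was called. JUN, a subunit of AP-1, fell by 0.48 (edgeR adjusted p = 0.0252), from 129 to 145 CPM in controls to 76.6 to 108 CPM. Of 12 genes of the p53 response beside CDKN1A, 4 were called higher and 1 lower, against 23.7% of all genes called in either direction, with a median of 0.18. FAS, a death receptor, rose by 1.13 (edgeR adjusted p = 0.00476) and FDXR, a mitochondrial reductase, by 0.55 (edgeR adjusted p = 0.00258), while BTG2, an antiproliferative gene, fell by 0.71 (edgeR adjusted p = 0.0175). The damage recognition genes DDB2 (0.39, edgeR adjusted p = 0.0276) and XPC (0.47, edgeR adjusted p = 0.044) rose as well. MDM2 (0.18) and BAX (−0.27) were not called. At 24 h and 15 weeks none of the genes of these lists was called.

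**Figure D4:**
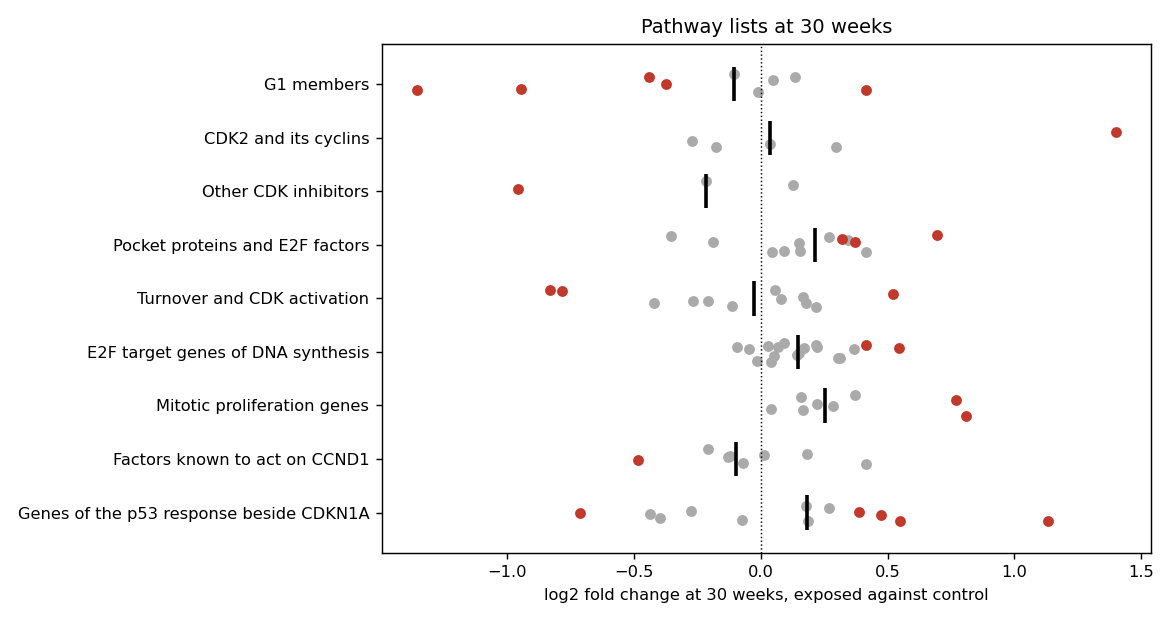
Log2 fold change at 30 weeks (exposed against control) of each tested gene in the 9 tested G1 genes and the lists of the pathway, one row a list; red points were called at an adjusted p under 0.05, grey ones were not, and the black bar is the list's median. CCND1 and CDK6 lie farthest left among the G1 genes, and CCNE1 and FAS farthest right among all.

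Markers of other cell types moved with the groups at 30 weeks. The summed level of 17 skeletal muscle genes was 380 to 456 CPM in controls and 78.2 to 96.2 CPM in exposed cells, against 111 to 182 CPM earlier. Of its 11 tested genes, 9 were called lower in exposed cells, where 23.7% of all tested genes were called in either direction. MYOD1, the master regulator of muscle, was at 85.3 CPM in these controls and 0.46 CPM in exposed cells, and MYF5 and MYF6 were at 0. The 12 epithelial genes summed to 315 to 410 CPM in controls and 879 to 1099 CPM in exposed cells, with KRT5 at 0. Of their 7 tested genes, 4 were called higher and none was called lower. The 7 mesenchymal genes summed to 1948 to 2478 and 1607 to 1831 CPM, and of 6 tested 1 was called higher and 1 called lower. The 3 endothelial genes summed to 0.473 to 0.758 CPM in controls and 1.73 to 2.90 CPM in exposed cells, and the 3 leukocyte genes to 23.6 to 30.7 and 11.9 to 17.3 CPM, with CD3E at 0 and PTPRC near it. Their part in the changes of the G1 genes was not tested.

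RB1 lies on a chromosome whose genes were mostly higher in exposed cells at 30 weeks. Of 308 tested genes of chromosome 13, 75% were higher, 89 were called higher and 17 lower, and the median log2 fold change was 0.31, against 0.0088 over all genes with a position. At 15 weeks that median was 0.09 and at 24 h −0.03. Within 5 Mb of RB1, 18 of 67 tested genes were called higher and 1 lower, with a median of 0.28, where 23.7% of all tested genes were called in either direction. Of its neighbours, ITM2B changed by 0.02, RCBTB2 by 0.49 (edgeR adjusted p = 0.0671), MED4-AS1 by 0.47 and LPAR6, which lies inside RB1 on the opposite strand, by 0.17, none of them called. The part of this in the rise of RB1 was not tested. Chromosome 9, which holds CDKN2A and CDKN2B, had a median of 0.19, and their neighbour MTAP changed by 0.24 (edgeR adjusted p = 0.117).

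**Figure D5:**
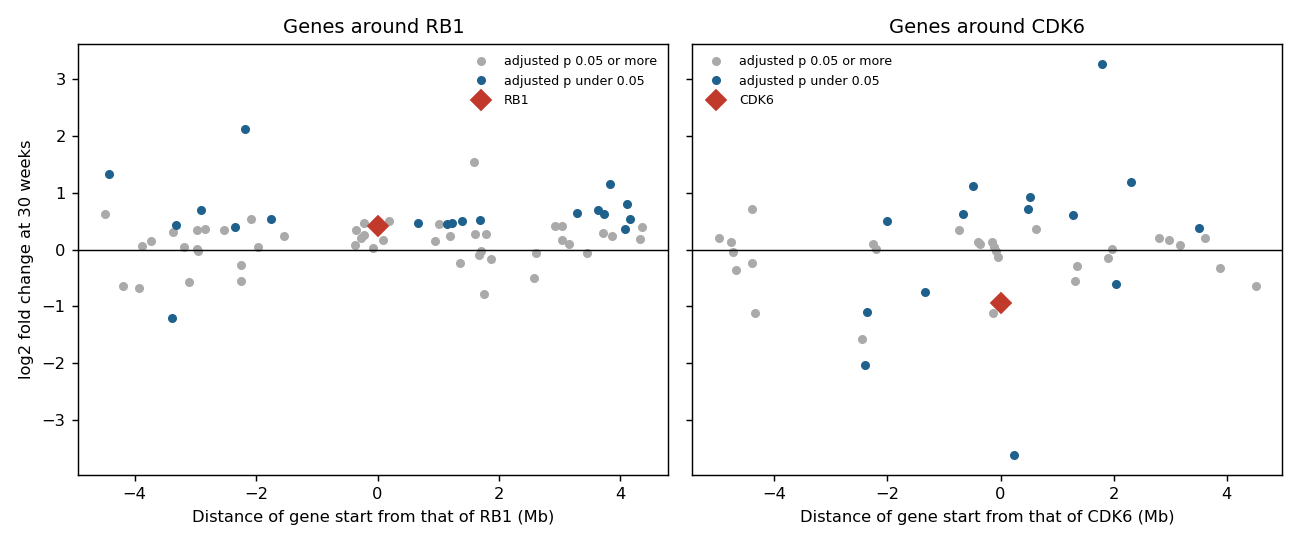
Log2 fold change at 30 weeks of the tested genes within 5 Mb of RB1 (left) and CDK6 (right), against the distance of their starts in Mb; the red diamond is RB1 or CDK6, blue points were called at an adjusted p under 0.05 and grey ones were not. Around RB1 most called genes lie above 0, and around CDK6 they lie on both sides.

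Around the genes that fell, calls ran in both directions. Within 5 Mb, 11 were called higher and 19 lower of 182 tested genes around CCND1, 8 and 11 of 90 around CCND3, 11 and 13 of 131 around CDKN1A and 9 and 5 of 43 around CDK6, where 23.7% of all tested genes were called. Beside CCND1, LTO1 rose by 0.41 (edgeR adjusted p = 0.0167) and TPCN2 and FADD were not called. On one side of CDK6, SAMD9, with its start 495 kb away, rose by 0.72 (edgeR adjusted p = 0.0109). CDK6-AS1, an antisense RNA of 0 to 34 counts that overlaps CDK6, fell by 3.63 (edgeR adjusted p = 0.00056), a value that depends on the prior count. Beside CCND3, C6orf132 rose by 1.07 (edgeR adjusted p = 0.00485) and TAF8 was not called. Among the nearest tested genes of CDKN2B, LOC101929563, with its start 1498 kb away, fell by 1.10 (edgeR adjusted p = 0.00533). None of the nearest tested neighbours of CCND2, CDK4, CDKN1A, CDKN1B, CDKN2A and RB1 was called.

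Over all 15 samples, the genes whose levels ran most like CCND1 among 13448 genes of at least 1 CPM were DPF3 (Pearson r = 0.97), SNORD116-21 (0.97) and MOK (0.96). Those most like CDKN1A were TRNN (0.99), HADH (0.99) and TRNC (0.99), and those most like RB1 were ERP44 (0.94), ELOVL7 (0.94) and PPP6C (0.93). These are descriptions over 6 conditions that share their batches, scaling and libraries.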

How the data were processed

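RNA of 15 BEAS-2B samples was sequenced as stranded total RNA after removal of ribosomal RNA. Raw counts per Entrez gene were deposited by the authors, who had used Rfastp for cleaning and Rsubread for counting on GRCh38 (bcl2fastq, featureCounts and hg38 are named in the submitters' processing notes). The strand setting and the treatment of reads with several matches are not given in the sources used here. Genes were named from RefSeq (27745 of 28395 matched).

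From the counts, edgeR 4.0.16 (R 4.3.3) filtered genes with filterByExpr, scaled libraries by TMM and fitted the quasi-likelihood model to all 15 samples, with the 6 conditions as separate means. The study's own model was limma-voom with surrogate variables, tried here as an alternative beside DESeq2 1.42.0 and limma 3.58.1 (sva 3.50.0). The fit was tested on simulated data. Log2 CPM used a prior count of 2. Levels per kb used the union of exons in GENCODE v44, which pools the exons of all isoforms. Levels, shares and ratios compared between genes depend on these lengths. Named are all 10 genes, up to 3 genes of each list with the smallest adjusted p past 0.05 at 30 weeks, the 2 nearest tested genes on each side and the 3 most alike to CCND1, CDKN1A and RB1. Other genes given as values (E2F1, CDKN2C, MDM2, BAX, DDB2, XPC and markers) were chosen after their values were seen, as was leaving out the 2 libraries of 30 weeks together. The 10 genes and all lists were chosen with earlier results of these data known. Intervals and limits cover counting error or sample spread only. The main fit did not pair samples by replicate number, and the sample titles do not say whether these numbers pair them. Deviations of same-numbered samples correlated at −0.06 at 24 h and 0.03 at 15 weeks. With 2 samples a group these values only mirror those of unlike numbers, so they cannot decide it. At 30 weeks they were −0.12, 0.30 and 0.10, and −0.48 to 0.36 for samples of unlike number.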

Additional observations from a re-analysis of the deposited data

Results flagged for a closer look

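The change of CDK6 differed between the later times by the test of that difference: −1.08 on the log2 scale at 30 weeks minus 15 weeks (edgeR adjusted p = 0.019, and 1.25e-05 to 0.139 over 22 alternatives). Exposed cells were at 57.2 to 89.7 CPM at 30 weeks, below their controls at 114 to 143 CPM, and at 96.7 and 105 CPM at 15 weeks, overlapping theirs at 82.4 and 100 CPM. The times lie in separate batches, each with its own controls.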

How the results depend on the processing

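At 24 h and 15 weeks no G1 gene was called under any of the 16 alternatives run. At 30 weeks, of 19 alternatives CCND1 was called in 19 (adjusted p 1.86e-07 to 0.0122) and CDK6 in 18 (all but a fold of at least 2; 3.07e-08 to 0.00392), RB1 in 15 (0.00267 to 0.0771), CCND3 in 14 (0.00407 to 0.108) and CDKN1A in 10 (adjusted p 0.00903 to 0.19). The 5 calls became 2 (CCND1, CDK6) with each time fitted alone and at an adjusted p under 0.01, 1 with a fold of at least 2, and 3 (CCND1, CDK6, RB1) without the 2 libraries that stand apart. With 1 replicate left out they ran from 2 (without control replicate 1: CCND1, CDK6) to 5.

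The 1 call of the difference between 30 and 15 weeks became 2 (CCND1, CDK6) with 2 surrogate variables and without the 2 libraries, 0 at an adjusted p under 0.01, and 0 to 2 with 1 replicate left out (0 without control replicate 1 or either exposed replicate of 15 weeks, 2 without exposed replicate 2 of 30 weeks). For control 15 weeks against 24 h, 2 calls became 4 with batch 1 fitted alone, 1 at an adjusted p under 0.01, 1 with a fold of at least 2 and 1 to 1 with a replicate left out. With a fold of at least 2, control 30 against 15 weeks gave 3, exposed 15 weeks against 24 h 1 (1 to 3 with a replicate left out; 1 without exposed replicate 2 of 24 h) and exposed 30 against 15 weeks 2. Where a replicate was left out of 2, the lone sample was assumed to vary like the other groups. The cause of these moves was not tested.

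Values that changed sign were never called. CCND3 at 15 weeks was −0.0039 with DESeq2, −0.012 with surrogate variables, −0.0056 alone, −0.0038 with batch 1 alone and −0.015 with upper-quartile scaling. CDK4 at 30 weeks was 0.012 with surrogate variables and 0.075 without the 2 libraries, where CDKN2A was 0.025. CDK4 in exposed cells from 24 h to 15 weeks was 0.0067 with batch 1 alone, 4.26e-05 with at least 10 counts everywhere and 0.043 with upper-quartile scaling.

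With 1 replicate left out, the log2 changes at 24 h ran from −0.052 to 0.087 for CCND3, −0.048 to 0.10 for CDK4, −0.068 to 0.15 for CDKN1A, −0.34 to 0.035 for CDK6, −0.33 to 0.086 for CDKN1B and −0.48 to 0.12 for CDKN2B. At 15 weeks they ran from −0.18 to 0.088 for CDKN1A, −0.10 to 0.074 for CDKN1B, −0.053 to 0.064 for CCND3 and −0.090 to 0.013 for CDK4. At 30 weeks they ran from −0.053 to 0.074 for CDK4 and −0.052 to 0.21 for CDKN2B. For the difference they ran from −0.059 to 0.12 for CDKN2A, −0.23 to 0.067 for CDKN2B and −0.024 to 0.11 for CDK4. Over time they ran from −0.015 to 0.13 for CDK4 in controls to 15 weeks, −0.36 to 0.25 for CDKN2B and −0.058 to 0.047 for CDK4 in exposed cells to 15 weeks, and −0.11 to 0.0084 for CCND3 and −0.058 to 0.12 for CDKN1B in exposed cells to 30 weeks.

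With the replicate number as a block, 0, 0 and 5 genes were called at 24 h, 15 weeks and 30 weeks and 1 for the difference, and CDKN2B at 30 weeks was −0.056. Over all genes, calls ran from 1463 to 5704 at 30 weeks (3961 as reported), 0 to 304 at 15 weeks, 393 to 1973 for the difference (794 as reported), 2168 to 6841 and 2242 to 7031 from 24 h to 15 weeks in controls and exposed cells (4174 and 4349), and 3994 to 9653 and 2643 to 9577 from 15 to 30 weeks (8419 and 7697). The 3961 genes of 30 weeks became 2491 without control replicate 1. The 7697 became 5077 and 5069 without exposed replicate 1 or 2 of 15 weeks.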
